A study of Rattus norvegicus with 12 samples.

Results

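Thrombospondin 1 (Thbs1) was followed in the rat colon together with thrombospondin 2 (Thbs2), tenascin-C (Tnc), urokinase (Plau) and its receptor (Plaur), the 3 transforming growth factors beta (Tgfb1, Tgfb2 and Tgfb3) and fibronectin (Fn1). The members are all sequences on the array, other than control spots, whose gene name is 1 of these 9 names, out of 26514 names on the array. They were 12 of 30367 sequences, because Plaur, Tgfb2 and Fn1 each have 2 and the other genes have 1. The 9 genes were selected with their differences among the 3 groups already known, so those differences are given as a description. Where members past a threshold are counted, the count describes them and is no independent test.

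Colonic tissue from 12 male Wistar rats was measured, 1 array per rat and 4 rats per group. Group C rats (C1 to C4) were normally handled and received placebo. Group M rats (M5 to M8) had neonatal maternal separation (NMS), that is, 180 min away from the dam each day from postnatal day 2 to day 14, and received placebo. Group D rats (D9 to D12) had the same separation and received VSL#3, a probiotic mixture of bacterial strains, at a dose of 18000000000 (unit not given in the labels) by daily gavage from day 3 to day 60. The methods of the study give a slightly lower number for this dose than the labels. Placebo was also given from day 3 to day 60, all groups underwent colorectal distension with a balloon, and the colon was taken at day 60. NMS is an early life stress used as a model of irritable bowel syndrome. The comparisons address the effect of separation (Group M against Group C) and of the probiotic in separated rats (Group D against Group M).

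Every level below is a log2 signal taken relative to the 75th percentile of the same array, so a difference of 1 is a 2-fold change. Rat D12 was left out of the main comparisons, as in the heat maps of the study, and no reason for this is given in the sources used here. Where a difference of Group D from Group M is printed for a named gene, it is therefore given also with D12. For some named genes that difference is not printed. Counts at an unadjusted p are for the 11 rats only. Over 20305 sequences the mean correlation of D12 was 0.982 with Group M and 0.967 with the other Group D rats. Rat M6 correlated at 0.977 with the rest of Group M and at 0.990 with Group C, and C2 at 0.986 with Group M and 0.985 with the rest of Group C. Groups C and M shared 1 slide and all of Group D lay on another, so slide and probiotic cannot be told apart. Group C lay in array row 1 of the shared slide, Group M in row 2 of it and Group D in row 1 of the other slide. Array row and separation therefore cannot be told apart in Group M against Group C, and row also differed between Groups D and M. The 75th percentile signal was 1434 to 1953 and 75.5 to 77.5% of spots were well above background on each array. All 12 sequences were well above background on all 12 arrays. Markers of the colonic epithelium had a mean level of 3.5 to 4.37 and those of smooth muscle of 3.64 to 4.38 in every rat.

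Thbs1, Thbs2 and Tnc are matricellular proteins, which are laid down in the matrix of injured or remodelling tissue and signal to cells without being structural fibres. The growth factors of the TGF-beta family are secreted in a latent form held by a propeptide, and thrombospondin 1 is one of the proteins that can free the active ligand. Active TGF-beta acts through receptors and SMAD proteins to induce matrix genes, among them fibronectin. Urokinase, held at the cell surface by its receptor, converts plasminogen to plasmin, which removes fibrin and matrix in wounds.

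Each level is the brightness of a probe of 60 bases that captures one stretch of the transcript, and those for the genes described first are shown here as the scanner files give them, in lower case with nothing marked in capitals. For the genes with more than 1 probe the shown one is the dimmer.
Thbs1: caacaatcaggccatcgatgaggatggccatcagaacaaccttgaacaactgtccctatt
Thbs2: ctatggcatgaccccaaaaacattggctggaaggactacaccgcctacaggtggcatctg
Tnc: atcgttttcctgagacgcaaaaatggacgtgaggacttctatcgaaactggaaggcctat
Tgfb1: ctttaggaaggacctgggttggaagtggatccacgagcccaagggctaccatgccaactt
Plau: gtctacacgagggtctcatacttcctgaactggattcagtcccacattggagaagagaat
Plaur: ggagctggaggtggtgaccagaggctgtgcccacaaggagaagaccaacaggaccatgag
Fn1: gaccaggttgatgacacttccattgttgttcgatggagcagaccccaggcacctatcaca
On the rn4 build named in the file headers these lie at chr1:53589151-53589210 on the minus strand for Thbs2, chr1:80910123-80910182 on the plus strand for Tgfb1, chr15:3680711-3680770 on the minus strand for Plau, chr1:79712786-79712845 on the plus strand for Plaur and chr9:70745666-70745725 on the minus strand for Fn1. The files give no position for the Thbs1 and Tnc probes, and exon annotation of this build was not used here.

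RefSeq sequence (build GRCr8) before the annotated start was found for 7 of the 9 genes, and not for Thbs2 and Fn1. The 250 bases before the start are shown for Thbs1 (chr3:125510000-125510249, plus strand) and Tnc (chr5:82476132-82476381, minus strand). Tnc was taken because its level had the highest correlation with that of Thbs1 among the members. Capitals mark matches, on either strand, to 6 motifs. These are TATAAA of the TATA box, CCAAT of the box of that name, GGGCGG known from Sp factors, TGANTCA known from AP-1, CAGAC known from SMADs and the CArG box known from serum response factor.
Thbs1: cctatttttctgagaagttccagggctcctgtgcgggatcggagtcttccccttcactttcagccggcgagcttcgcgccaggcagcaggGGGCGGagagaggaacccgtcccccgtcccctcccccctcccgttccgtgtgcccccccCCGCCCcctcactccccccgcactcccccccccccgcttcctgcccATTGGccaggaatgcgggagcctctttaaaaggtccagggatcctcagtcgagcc
Tnc: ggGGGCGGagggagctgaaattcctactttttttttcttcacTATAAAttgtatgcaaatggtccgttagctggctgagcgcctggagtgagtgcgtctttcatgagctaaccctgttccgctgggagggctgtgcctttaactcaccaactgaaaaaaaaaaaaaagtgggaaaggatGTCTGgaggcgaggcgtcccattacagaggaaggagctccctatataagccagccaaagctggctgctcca
The Thbs1 window held the Sp motif 2 times and the CCAAT motif 1 time, and the Tnc window held 1 match to the TATA motif, 1 to the Sp motif and 1 to the SMAD motif, with no overlap between matches. Among 33469 RefSeq windows of the same length, 30.5% held the Sp motif, 34% the CCAAT motif, 12.9% the TATA motif and 42.9% the SMAD motif. The AP-1 motif was found in 1 of the 7 member windows (Plaur) and in 6.34% of all windows, and the CArG box in 0 of 7 and in 1.5%. These are matches of letters and not binding data.

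Thbs1 had the largest difference of the 12 sequences in both comparisons with Group M. Its level was -5.85, -4.49, -5.92 and -6.02 in C1 to C4, and -3.46, -3.08, -2.04 and -2.72 in M5 to M8. In Group D it was -5.90, -6.25 and -6.08 in D9 to D11, and -2.42 in D12. The ranges of Group M and Group C did not overlap, and neither did those of Group M and D9 to D11. C2 was the highest Group C rat, and D12 lay inside the range of Group M. The group means were -5.57 ± 0.72 (SD, n = 4) in Group C, -2.83 ± 0.60 (SD, n = 4) in Group M and -6.08 ± 0.18 (SD, n = 3) in Group D. Group M was thus above Group C by 2.74 (SE 0.37), a 6.69-fold difference, and Group D was below Group M, with a difference of -3.25 (SE 0.40), or 9.53-fold. Group D and Group C overlapped, with a difference of -0.51 (SE 0.40).

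With D12 the Group D mean of Thbs1 was -5.16 ± 1.84 (SD, n = 4). The difference from Group M became -2.34 (SE 0.76), or 5.05-fold, and that from Group C became 0.41 (SE 0.76), of the other sign. The Thbs1 signals were low, between 17 and 466 in scanner units, and its 2 spots on an array differed by a median of 0.21 and by up to 1.0 on the log2 scale (in D11). With normexp background correction in place of the scanner's own, the differences were 1.51 for Group M minus Group C (2.84-fold) and -1.69 for Group D minus Group M (3.22-fold). In this bulk tissue, a change in the number of cells of a type and a change in RNA per cell cannot be told apart.

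**Figure D1:**
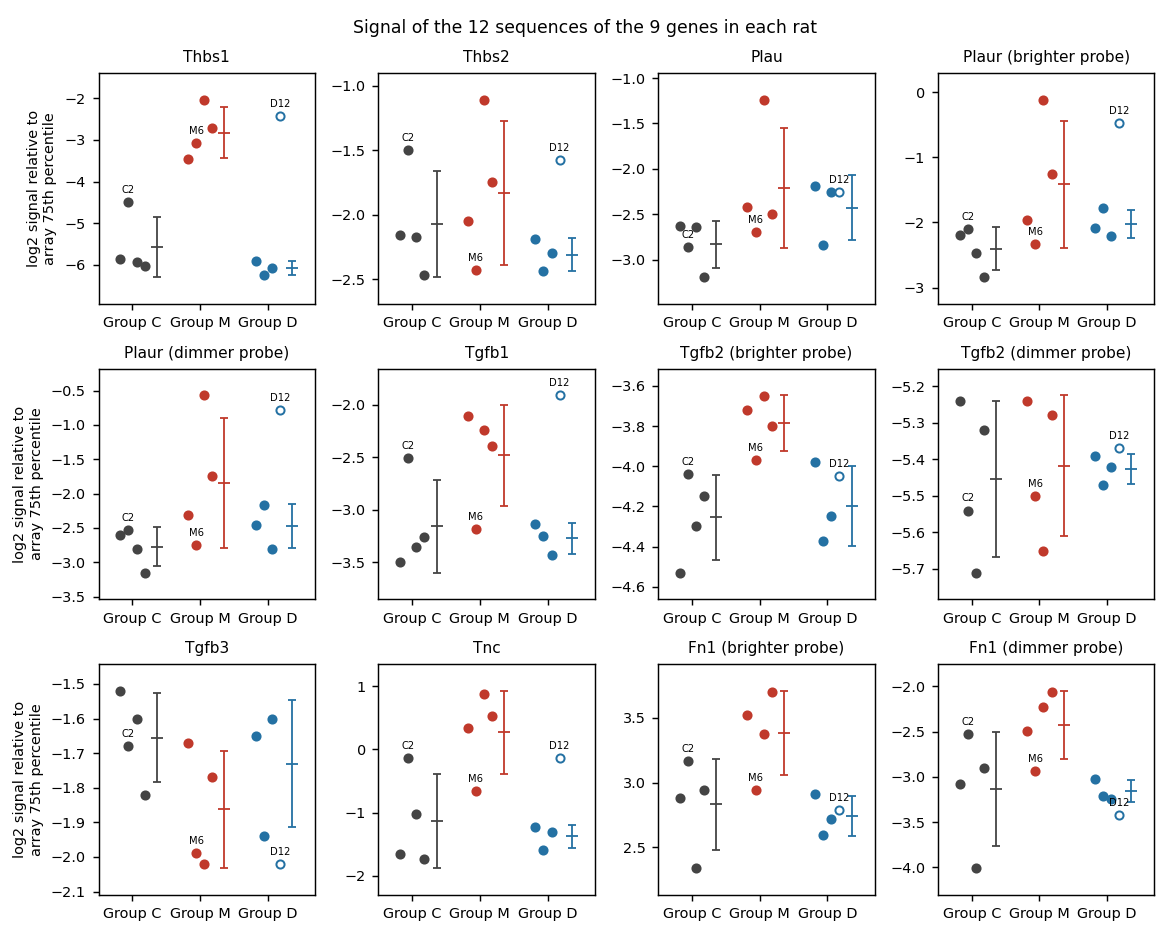
Level of each of the 12 sequences (y axis, log2 signal relative to the 75th percentile of the array) in the rats of Groups C, M and D. Points are single rats, the open point is D12, and the bars give the mean ± SD of each group without D12. Only for Thbs1 and the brighter Tgfb2 probe are all 4 Group M rats above all 4 Group C rats.

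Tnc, the tenascin found at wound edges, had the second largest difference. Its level was -1.65, -0.13, -1.02 and -1.74 in C1 to C4 and 0.34, -0.66, 0.87 and 0.52 in M5 to M8. In D9 to D11 it was -1.23, -1.59 and -1.31, and in D12 it was -0.14. M6 was the lowest Group M rat and C2 the highest Group C rat, and the order of these 2 rats made the groups overlap. The difference of Group M from Group C was 1.40 (SE 0.39), or 2.64-fold. Group D differed from Group M by -1.64 (SE 0.42), with no overlap, and by -1.34 (SE 0.44) with D12.

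Thbs2, the relative of Thbs1 that also restrains new vessels, differed less between the groups. Its level was -2.16, -1.50, -2.17 and -2.47 in C1 to C4, and -2.05, -2.43, -1.11 and -1.75 in M5 to M8. The Group D values were -2.19, -2.44 and -2.30, with -1.58 in D12. The 3 groups overlapped, and the difference of Group M from Group C was 0.24 (SE 0.28), smaller than its standard error, and 0.00 without M7. M7 was the highest rat for both thrombospondins.

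The 3 ligands differed from each other. Tgfb1, the main isoform of injured tissue, was -3.50, -2.51, -3.36 and -3.26 in Group C and -2.11, -3.18, -2.24 and -2.39 in Group M. In Group D it was -3.14, -3.25 and -3.43, and -1.91 in D12, the highest of all 12 rats. M5, M7 and M8 lay above every Group C rat, while M6 lay inside the Group C range. The differences were 0.68 (SE 0.27) for Group M minus Group C and -0.79 (SE 0.29) for Group D minus Group M. With D12 the latter became -0.45 (SE 0.36), and without M6 the former became 0.91 (SE 0.22). The Tgfb1 probe was the only member printed in 10 spots per array, which differed within an array by a median of 0.27.

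For Tgfb2, an isoform that binds its receptors with the help of the co-receptor betaglycan, the 2 probes disagreed, with a correlation of -0.0246 over the 12 arrays. The brighter one, printed in 1 spot, was -4.53 to -4.04 in Group C and -3.97 to -3.65 in Group M, a difference of 0.47 (SE 0.13) with no overlap. Its Group D levels were -4.37 to -3.98 with D12 among them. The dimmer probe was -5.71 to -5.24 in Group C, -5.65 to -5.24 in Group M and -5.47 to -5.37 in Group D with D12, and its difference of Group M from Group C was 0.04 (SE 0.13). Which of the probes reads the full set of Tgfb2 transcripts cannot be told from these values. Tgfb3 was the only gene with a lower mean in Group M, at -1.86 ± 0.17 (SD, n = 4) against -1.66 ± 0.13 (SD, n = 4) in Group C. The difference of -0.21 (SE 0.12) came with overlapping groups.

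Plaur, the urokinase receptor, had the widest spread within Group M, with an SD of 0.97 by its brighter probe. By its brighter probe Plaur was -2.20, -2.10, -2.47 and -2.84 in C1 to C4 and -1.96, -2.33, -0.12 and -1.26 in M5 to M8. In D9 to D11 it was -2.08, -1.78 and -2.21, and D12 was at -0.48. M7, M8 and D12 stood above all other rats. The mean difference of Group M from Group C was 0.98 (SE 0.41) by this probe and 0.92 (SE 0.40) by the dimmer one, and the 2 probes correlated at 0.995. Without M7 these became 0.55 and 0.50. Group D differed from Group M by -0.60 (SE 0.44) by the brighter probe, by -0.22 (SE 0.48) with D12 and by -0.17 without M7. Plau, the protease itself, was -3.19 to -2.63 in Group C and -2.69 to -1.24 in Group M, where M7 was again highest, and its mean difference was 0.62 (SE 0.30), or 0.29 without M7. For Plau the difference of Group D from Group M was -0.21 (SE 0.33), -0.17 with D12 and 0.11 without M7, and the Group D rats, -2.84 to -2.19 with D12 at -2.25, overlapped both other groups.

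Fn1, the fibronectin of plasma clots and of tissue matrix, was 2.88, 3.17, 2.34 and 2.94 in C1 to C4 and 3.52, 2.94, 3.38 and 3.70 in M5 to M8 by its brighter probe. Its Group D levels were 2.91, 2.60 and 2.72, with 2.79 in D12. Group M exceeded Group C by 0.55 (SE 0.20), with M6 inside the Group C range. Group D was apart from Group M by -0.64 (SE 0.22), with no overlap, and by -0.63 (SE 0.19) with D12. The dimmer probe gave 0.70 (SE 0.29), or 0.41 without C3, and -0.73 (SE 0.32), or -0.80 with D12, and correlated with the brighter at 0.952. By both Fn1 probes D12 was nearer to the other Group D rats than to Group M.

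**Figure D2:**
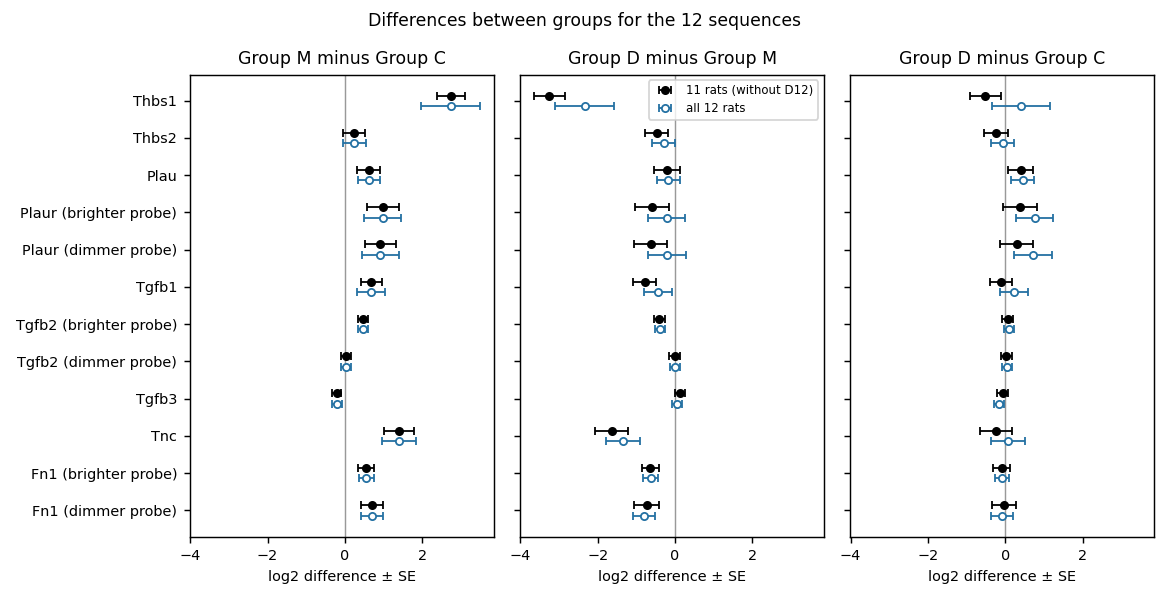
Differences between group means of the 12 sequences (x axis, log2 difference ± SE) for the 3 comparisons, for 11 rats (filled) and all 12 rats (open). Thbs1 and Tnc have the largest differences of Group M from both other groups, and adding D12 moves Thbs1 from -3.25 to -2.34 in Group D minus Group M.

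Group M had the higher mean for 11 of the 12 sequences against Group C, with a median difference of 0.65, where the median over all sequences was -0.01. Group D had the lower mean for 11 of 12 against Group M, with a median of -0.61 (-0.34 with D12) against 0.01 over all. Of the 12 sequences, 1 passed an adjusted p of 0.05 by limma in each of these comparisons, in both cases Thbs1, where 0.204% and 0.171% of all sequences did. With D12 none passed, where 0.0395% and 0.0198% did. By the criterion of the study's methods (analysis of variance and Tukey tests at 0.05, with a 2-fold difference) 2 passed in each, Thbs1 and Tnc, against 2.31% and 2.66% of all. With D12 these were 2 and 0, against 1.56% and 0.948%. The groups did not overlap for 2 sequences higher in Group M than in Group C (4.18% of all sequences) and for 5 lower in Group D than in Group M (7.38% of all). For Group D against Group C, 0 of 12 passed by limma (0.00659% of all), by the methods' criterion (0.369%) or by absence of overlap (7.57%), and the median difference was -0.05 (0.08 with D12). Since the genes were selected on these contrasts, nothing is read from the counts.

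The rats did not line up with their groups in the same way for every gene. M6 was nearer to the Group C mean than to the other Group M rats for 9 of the 12 sequences, the exceptions being Thbs1, the brighter Tgfb2 probe and Tgfb3. Its Thbs1 level of -3.08 was the second lowest of Group M after M5, whereas it was the lowest of Group M for Thbs2, Plau, both Plaur probes, Tgfb1, the brighter Tgfb2 probe, Tnc and both Fn1 probes. D12 was nearer to the Group M mean than to D9 to D11 for 9 of 12, the exceptions being the brighter Tgfb2 probe and both Fn1 probes. C2 was nearer to Group M than to the other Group C rats for 6 of 12, among them Thbs2, Tgfb1 and Tnc, but not Thbs1. Without M6, 7 of the 12 sequences passed for Group M against Group C and 4 for Group D against Group M, where 16.2% and 14.8% of all sequences passed.

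**Figure D3:**
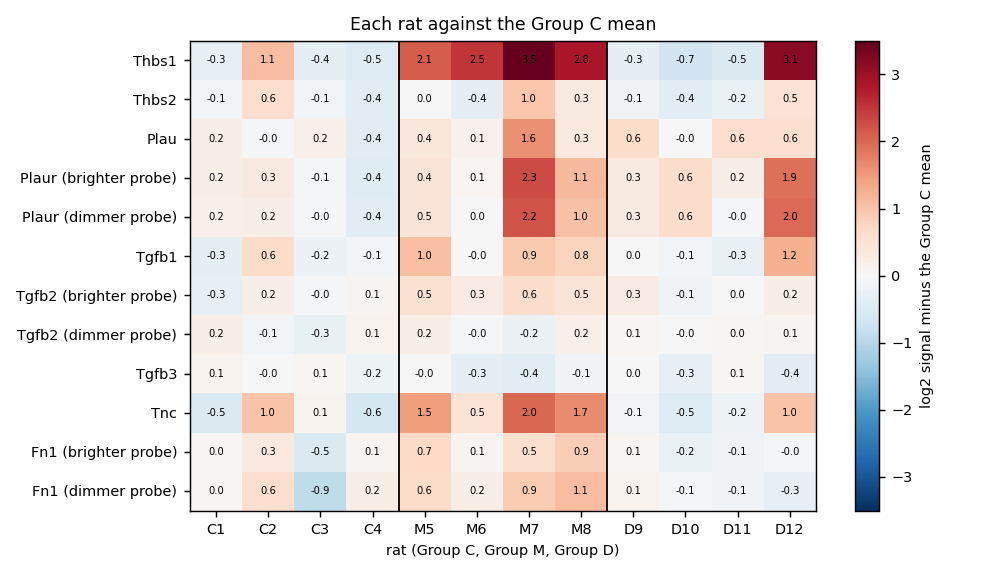
Level of each of the 12 sequences (rows) in each rat (columns) minus the Group C mean, on a log2 scale printed in each cell and shown by colour. The Thbs1 row is high in M5 to M8 and D12, while the M6 column is near 0 in most other rows.

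Across the 12 arrays the correlation with Thbs1 was 0.895 for Tnc, 0.835 for Tgfb1, 0.779 for the brighter Tgfb2 probe, 0.743 for both Plaur probes and 0.699 for Thbs2. It was 0.650 for the brighter Fn1 probe, 0.520 for Plau and -0.597 for Tgfb3. These points share arrays, and no relation was tested. By their Thbs1 level the rats fall into a low set (Group C and D9 to D11) and a high set (Group M and D12). The other members do not all split this way, and for Tnc C2 lay above M6. Of 14636 named sequences well above background on all arrays, 1.24% correlated with Thbs1 more strongly than Tnc did and 4.51% more strongly than Tgfb1. With group means removed, the correlation with Thbs1 was 0.768 for Tnc, 0.815 for Tgfb1 and 0.782 for Plaur, and 0.230 for Fn1.

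The 10 genes with the pattern most like Thbs1 were Akap2 and Samd4a (both 0.975), Sphk1 (0.972), Fgf2 (0.968), Rcan1 (0.967), Timp1 (0.966), Arc (0.964), RGD1307396 (0.959), Stat3 (0.958) and RGD1564664 (0.956). Among those with the most opposite pattern were Fam54b and Rtn4r (both -0.966), Fn3k (-0.965) and Il1rap (-0.964). Timp1 ran at 0.13 to 3.82 in Group C, 3.95 to 6.78 in Group M and 0.20 to 0.60 in D9 to D11, with 4.87 in D12. Sphk1 ran at -6.64 to -3.63, -2.83 to -0.94 and -6.21 to -5.50, with -0.50 in D12. In all, 159 named sequences correlated with Thbs1 at 0.9 or above and 107 at -0.9 or below.

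Around the members, 126 other genes of the pathways were measured out of 134 listed, in 10 lists drawn up from textbook roles with earlier results of these data known. For Group M against Group C, 1 of 126 rose and 0 fell at an adjusted p of 0.05 by limma. The 1 was F2r, the thrombin receptor, which was -4.78 to -4.60 in Group C and -4.24 to -3.76 in Group M (difference 0.76, SE 0.12, adjusted p = 0.046 by limma). For Group D against Group M, 0 rose and 1 fell. The 1 was Has2, a hyaluronan synthase of the provisional matrix, at -5.93 to -4.62 in Group M and -8.16 to -7.79 in D9 to D11 (difference -2.50, SE 0.38, adjusted p = 0.0489 by limma). Has2 was well above background on all 4 Group M arrays, on 1 of 4 in Group C and on none of these 3 in Group D, so Group M was at least 5.23-fold higher than Group D without D12, a bound set by the dimmest sequence well above background on each array. D12 was at -6.38, and the difference with it was -2.12. With D12 in the model, neither gene passed in either comparison and 0 of 126 were called. At an unadjusted p of 0.05, 46 of 126 (36.5%) passed for Group M against Group C, 34 of them higher, where 22.7% of all sequences passed and 10% were higher. For Group D against Group M, 54 (42.9%) passed, 40 of them lower, where 21.6% of all passed and 10.3% were lower. For Group D against Group C, 0 of 126 were called and 5 (3.97%) passed unadjusted, where 5.97% of all did. The shares rest on unlike sets, here and for each list below. A listed gene is read by its probe with the highest mean signal. All sequences include 5933 that were well above background on no array.

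Of the rats left out in turn, M6 changed the number of genes called most. Without it, 28 of 126 rose and 12 fell for Group M against Group C, and 12 rose and 35 fell for Group D against Group M. Of all sequences, 4914 and 4504 were called without M6, as given above in percent, against 62 and 52 with it. The genes below are given from the model with M6 unless stated.

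Members of the plasminogen system had 7 of 13 measured genes past an unadjusted p of 0.05 in Group M against Group C, 5 of them higher, where 22.7% of all sequences passed. S100a10 and Anxa2, which together hold plasminogen at the cell surface, differed by 1.32 (SE 0.33) and 1.30 (SE 0.41) between Group M and Group C, and by -1.08 (SE 0.35) and -1.30 (SE 0.45) between Group D and Group M, or -0.88 and -1.02 with D12. S100a10 was 3.36 to 4.21 in Group C and 4.32 to 5.81 in Group M with no overlap, and its D12 level of 4.72 lay inside the Group M range. Without M6, 6 genes rose, among them Plat, Serpine2, Serpinb2, Anxa2 and S100a10, and 2 fell (Lrp1 and Hgf) in Group M against Group C. Of all sequences, 16.2% were called in that comparison without M6.

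The list of provisional matrix and clotting had 8 of 15 genes past an unadjusted p of 0.05 in Group M against Group C, 7 of them higher, and 10 of 15 in Group D against Group M, 9 of them lower. The shares over all sequences were 22.7% and 21.6%. Tfpi2, an inhibitor of plasmin and tissue factor, was -8.89 to -5.19 in Group C, -5.45 to -2.37 in Group M and -8.73 to -7.83 in D9 to D11, with D12 at -3.45. It was well above background on 1 of 4 Group C arrays and none of the 3 Group D arrays, and Group M was at least 15.4-fold higher than Group D without D12 (adjusted p = 0.083 by limma). With D12 the difference was -2.95. Has1 differed by 1.69 (SE 0.42) between Group M and Group C and by -1.55 (SE 0.45) between Group D and Group M. D12 was at 0.49, above every other rat, and with it the latter was -0.71. Without M6, 7 of the 15 rose (F2r, F3, Has1, Has2, Cd44, Vcan and Tfpi2) and Vtn fell in Group M against Group C. Without that rat 16.2% of all sequences were called.

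**Figure D4:**
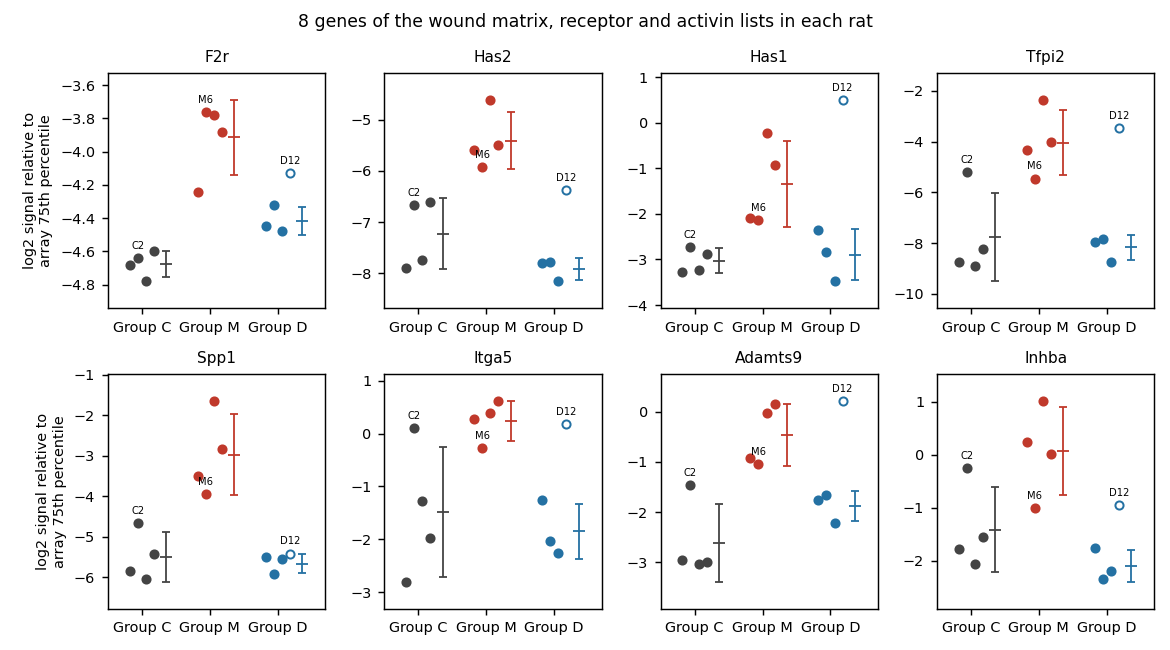
Level of 8 pathway genes (y axis, log2 signal relative to the 75th percentile of the array) by rat and group, with the open point for D12 and bars for the mean ± SD without D12. F2r has 4 Group M rats above all Group C rats (-4.24 to -3.76 against -4.78 to -4.60). D12 lies in or above the Group M range for F2r, Has1, Tfpi2, Itga5, Adamts9 and Inhba. It lies below that range for Has2 (-6.38) and near the other Group D rats for Spp1 (-5.41).

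Among other matricellular proteins, 6 of 17 passed an unadjusted p of 0.05 in Group M against Group C, all higher, and none after adjustment, where 22.7% of all passed unadjusted and 10% were higher. Spp1 (osteopontin) was -6.04 to -4.66 in Group C, -3.94 to -1.64 in Group M and -5.92 to -5.50 in D9 to D11, and its D12 level of -5.41 stayed with Group D. Its differences were 2.51 (SE 0.46) and -2.68 (SE 0.50), with adjusted p of 0.0768 and 0.069 by limma, and the latter was -2.62 with D12. Postn (periostin) differed by 1.04 (SE 0.22) and -0.95 (SE 0.24), and its D12 level of -0.03 was the lowest of all rats, which made the latter -1.12. Cyr61 differed by 1.13 (SE 0.37) between Group M and Group C but by -0.25 (SE 0.40) between Group D and Group M (0.05 with D12). Sparc and Thbs4, also matricellular, differed by 0.05 and 0.00 between Group M and Group C.

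The receptors for thrombospondins, tenascins and fibronectin had 4 of 11 genes past an unadjusted p of 0.05 in each of the comparisons with Group M, where 22.7% and 21.6% of all sequences passed. Itga5, the alpha subunit of the main fibronectin receptor, was -2.80 to 0.11 in Group C and -0.28 to 0.61 in Group M (difference 1.73, SE 0.53), and C2 was the Group C rat at 0.11. Itgb1, its partner, differed by 0.72 (SE 0.19), and Sdc1 by 1.0 (SE 0.42). The thrombospondin receptors Cd36 and Cd47 differed by -0.06 and -0.12. In the list of small proteoglycans and thrombospondin cleavage 5 of 9 genes passed an unadjusted p of 0.05 in Group M against Group C, 4 of them higher, and 7 of 9 in Group D against Group M, 6 of them lower, beside the same shares of all sequences. Adamts9 and Adamts1, metalloproteinases of the matrix, differed by 2.15 (SE 0.40) and 1.39 (SE 0.45) between Group M and Group C, and A2m, a broad protease inhibitor, by 1.22 (SE 0.52).

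Receptors, latent binding, SMADs and targets of TGF-beta had list medians of 0.19, 0.01, 0.01 and 0.28 in Group M against Group C, where the median of all sequences was -0.01. The share of all sequences past an unadjusted p of 0.05 was 22.7%, and the counts of 3 of 12, 3 of 13 and 3 of 14 below are near it. Of 6 receptor genes, 0 passed an unadjusted p of 0.05 in Group M against Group C, and the furthest were Eng with 0.41 (SE 0.19), Tgfbr2 with 0.37 (SE 0.23) and Tgfbr3 with 0.36 (SE 0.28). In latent TGF-beta binding and activation, 3 of 12 passed unadjusted, with Ltbp1, which tethers the latent complex, at 0.79 (SE 0.28) and the activating integrin subunits Itgb5 and Itgb8 at -0.78 (SE 0.24) and -0.69 (SE 0.27). Of 13 SMADs and regulators 3 passed unadjusted, and Pmepa1, an induced inhibitor of the pathway, differed by 0.96 (SE 0.32) and Smad7 by -0.43 (SE 0.15). Smad9 differed by -0.70 (SE 0.32) and was well above background on 2 of 4 Group C arrays and 1 of 4 Group M arrays. The median difference over 14 target genes was 0.28, and 3 passed unadjusted, among them Cdkn2b at -0.75 (SE 0.29). Cilp, at 1.25 (SE 0.79), did not pass. None of these 4 lists had a gene past an adjusted p of 0.05 in any comparison by limma.

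In the list of activins, BMPs and their antagonists 9 of 19 genes passed an unadjusted p of 0.05 in Group M against Group C, 5 higher and 4 lower, where 22.7% of all sequences passed. Inhba, the subunit of activin A, was -2.07 to -0.26 in Group C, -1.0 to 1.02 in Group M and -2.34 to -1.76 in D9 to D11, and D12 was at -0.95. Its differences were 1.48 (SE 0.46) and -2.16 (SE 0.50), the latter -1.88 with D12. Grem1, a BMP antagonist, differed by 1.19 (SE 0.39), and Gdf15 by -1.25 (SE 0.41) between Group M and Group C and by 1.71 (SE 0.45) between Group D and Group M. D12 had a Gdf15 level of -2.68, inside the Group M range of -3.23 to -2.29, and with it the latter was 1.31. Without M6, Inhba, Bmp5 and Grem1 rose and Chrd and Bmpr1a were among those that fell in Group M against Group C.

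**Figure D5:**
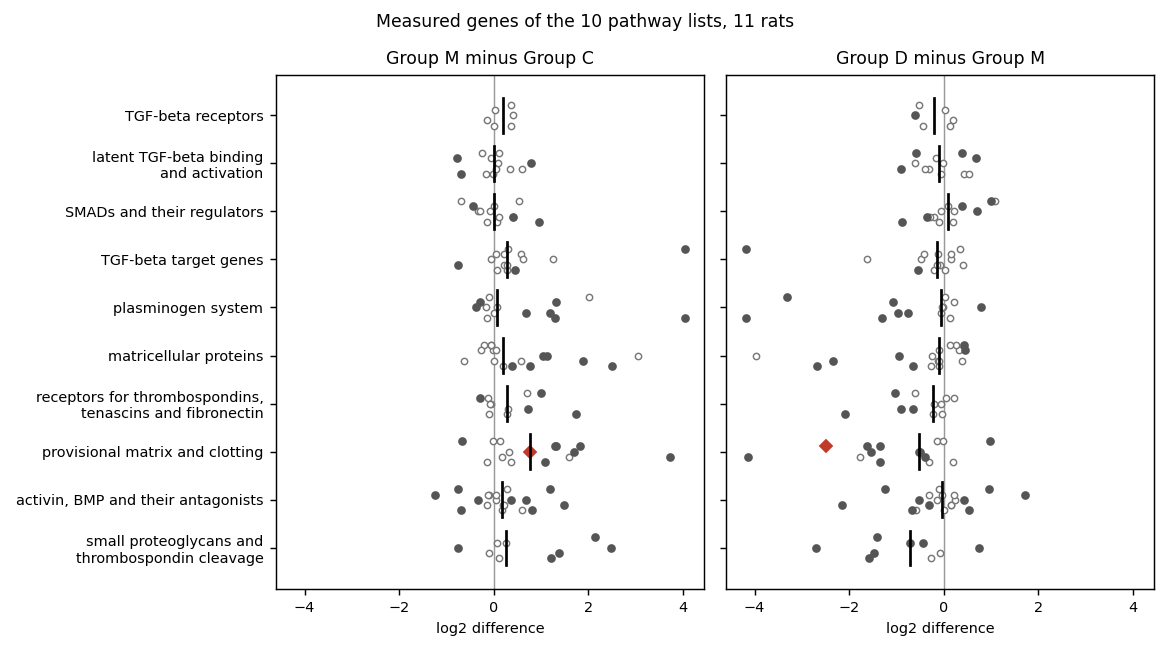
Log2 differences (x axis) of the measured genes of the 10 lists (rows) for Group M minus Group C and Group D minus Group M in 11 rats. Open points have an unadjusted p above 0.05, filled points 0.05 or below, red diamonds an adjusted p of 0.05 or below (F2r and Has2), and black bars mark list medians, which in Group M minus Group C run from 0.01 to 0.76.

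Markers of other cell types are given beside these genes, and their part in the results was not tested. The mean level of 5 neutrophil markers was -6.56 to -5.60 in Group C, -5.95 to -2.65 in Group M and -6.37 to -5.96 in D9 to D11, with -5.23 in D12, and 0 of 5 passed an adjusted p of 0.05. Of these, Csf3r and Il8rb were well above background on no array of Group C or of D9 to D11. M7 was the highest Group M rat for S100a8, S100a9, Csf3r and Il8rb, but not for Mpo. Platelets are a known store of thrombospondin 1, and 4 of 6 platelet genes were measured. Among these Ppbp was well above background on no array. The mean of the 4 was -3.76 to -3.62 in Group C, -3.62 to -3.12 in Group M and -3.93 to -3.68 in D9 to D11. D12 was at -3.66. The 6 markers of monocytes and macrophages were at -0.93 to -0.50, -0.79 to -0.44 and -0.98 to -0.89, with D12 at -0.51. The 6 fibroblast markers were at 0.98 to 1.80 in Group C, 1.52 to 2.18 in Group M and 1.37 to 1.40 in D9 to D11. For these, D12 was at 1.3. The 6 endothelial markers were at -1.87 to -1.66, -1.95 to -1.65 and -2.04 to -1.93, with D12 at -1.96. The 6 markers of enteric glia and neurons were at -3.06 to -2.94, -2.90 to -2.59 and -3.05 to -2.81, with D12 at -2.67. Only 2 of these 6 were higher in Group M than in Group C, and their median difference was -0.06. Of 5 mesothelial markers 4 were measured, at -1.82 to -1.35, -2.20 to -1.42 and -2.73 to -1.62, with D12 at -2.74. No marker of any list passed an adjusted p of 0.05 by limma in a comparison, and the number at an unadjusted p of 0.05 in Group M against Group C was 3 of 5 for neutrophils, 3 of 6 for monocytes and macrophages, 2 of 6 for fibroblasts, 2 of 6 for enteric glia and neurons, 2 of 4 for mesothelial cells, 1 of 4 for platelets, 1 of 6 for smooth muscle, 1 of 9 for epithelium and 0 of 6 for endothelial cells, where 22.7% of all sequences passed. In Group D against Group M it was 5 of 6 for enteric glia and neurons, 3 higher and 2 lower. For monocytes and macrophages it was 3 of 6, for neutrophils 2 of 5 and for platelets 2 of 4, all lower. It was 1 of 6 for fibroblasts, 1 of 6 for endothelial cells, 1 of 9 for epithelium, and 0 for smooth muscle and mesothelial cells. The share of all sequences that passed in that comparison was 21.6%.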

How the data were processed

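Total RNA of 12 rat colons was labelled with Cy3 and hybridised to Agilent whole rat genome arrays, 1 array per rat. Per the file headers, Feature Extraction 10.5.1.1 had subtracted the background, and the intensities are linear and not normalized between arrays. The authors also deposited a matrix of log2 values, quantile normalized as its columns show. Arrays hold 62976 spots, of which 4259 are controls.

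Control spots and outlier spots were left out, each processed signal was divided by the 75th percentile of its array and put on a log2 scale, and spots of a probe were averaged, which gave 30367 sequences. A sequence was called well above background when at least 0.5 of its spots were. Group differences were fitted with limma 3.58.1 in R 4.3.3, with C, M and D in 1 model of 11 arrays (without D12) and Benjamini-Hochberg adjustment over all sequences at 0.05. The fit was tested on simulated data. Precision is limited by the number of arrays. The rats are separate animals, but litters are not given in the sources used here.

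The members and lists were chosen with earlier results of these data known. Named were all members, list genes past 0.05, the 3 genes per list with the largest difference between Groups M and C among those well above background in a group, and the genes whose pattern was most like that of Thbs1. Sparc, Thbs4, Cd36, Cd47 and genes named only as called without M6 lie outside this rule and were chosen after their values were seen. For genes with several probes the one with the highest mean signal was used. Gene names are those of the array design. Alternatives were all 12 arrays, normexp (offset 50), quantile and median scaling, the authors' matrix, outlier spots kept, a filter on dim probes, a replicate block, array weights, only the compared groups, each rat left out and the methods' criterion. Figures were drawn with matplotlib 3.10.9. Some genes that the rule names are not reported here.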

Additional observations from a re-analysis of the deposited data

Results flagged for a closer look

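In groups of 4 rats, a rat whose gap to its nearest neighbour exceeded the share of the group's range that Dixon's test allows was found 21 times among 171 groups of 57 described sequences. Chance marks about 1 in 20 groups, but this rate does not apply here, since many of the sequences were named for their likeness to Thbs1 over the 12 arrays or for their group differences. D12 was the rat 11 times, C2 3 times and M6 3 times.

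Among the members, C2 stood apart in Group C for Thbs1, at -4.49 against -6.02 to -5.85 in the other rats. D12 stood apart in Group D for Thbs1, at -2.42 against -6.25 to -5.90. D10 stood apart in Group D for Plau, at -2.84 against -2.25 to -2.19.

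D12 also stood apart from the other Group D rats with Tfpi2 at -3.45, A2m at 0.83, Sphk1 at -0.50, Rcan1 at 2.71 and Timp1 at 4.87, all higher, and with Itgb5 at -0.64, Smad9 at -8.11, Rtn4r at -3.96, Fn3k at -4.40 and Il1rap at -5.88, all lower. C2 was the high rat of Group C for Adamts9, at -1.46, and Samd4a, at -2.78. M6 was apart in Group M with Cdkn2b at 1.31, above the others, and with A2m at -0.96 and Arc at -2.34, below them. M7 was high for Tgfbr3, at -4.14, and C4 was low in Group C for Smad9, at -7.12, and Sdc1, at 2.66.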

How the results depend on the processing

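The number of pathway genes called was 1 for Group M against Group C and 1 for Group D against Group M by limma with 11 arrays, and most alternatives changed these counts. For the former it was 0 with all 12 arrays, quantile normalization, the median shift, the authors' matrix or only the compared groups, 2 with normexp, 4 with the filter on dim probes, 58 with array weights (lowest for M6, at 0.365) and 15 by the methods' criterion. For the latter it was 0 with all 12 arrays, quantile normalization, the authors' matrix or only the compared groups, 5 with normexp (2 higher, 3 lower), 5 with the filter, 55 with array weights and 13 by the methods' criterion. Leaving out 1 rat gave 0 to 40 for the former and 0 to 47 for the latter, the highest without M6 and the next, 3 in each, without C2. The causes were not tested. Of all sequences, limma with 11 arrays called 0.204% and 0.171% in these comparisons, the methods' criterion 2.31% and 2.66%, and limma without M6 16.2% and 14.8%. Shares with array weights, normexp or the filter are not given here, so nothing is read from those counts. For Group D against Group C the number of pathway genes called was 0 under every alternative run. With the replicate number as a block, 0 genes were called in each comparison. Deviations of rats with the same number in Groups M and C correlated between -0.719 and -0.0656, so the numbers were not taken as pairs.

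The Thbs1 difference was 2.74 for Group M minus Group C and ran from 2.48 to 3.10 with 1 rat left out, and was 1.51 with normexp. For Group D minus Group M it was -3.25, ran from -3.46 to -2.99 with 1 rat left out, and was -2.34 with all 12 arrays and -1.69 with normexp. For Group D minus Group C it was -0.51, from -0.66 to -0.15 with 1 rat left out, and 0.41 with all 12 arrays. With the replicate block the 3 values were 2.74, -3.31 and -0.57. Of the other 11 member sequences, 1 value moved by more than the spread between rats, the brighter Tgfb2 probe in Group D minus Group M, at -0.18 with normexp.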
